A study of Rattus norvegicus with 6 samples.

Results

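The chromosome 2 neighbourhood of Plcxd3 was examined in INS-1 cells, an insulin-secreting line derived from a rat insulinoma. INS-SMA and INS-MOCK cells were compared, and all were cultured in the same medium. INS-SMA cells carry the genotype label SMA overexpression and were made with a lentivirus for α-SMA (alpha smooth muscle actin, an actin of smooth muscle). INS-MOCK cells carry the genotype label wild type, and the labels do not say whether they received a lentivirus or whether either line was 1 clone. Each group had 3 RNA-sequencing libraries, called biological replicates by the series. The members were all genes named in the deposited count table whose listed start lies on chromosome 2 between 53.5 and 54.7 Mb. The listed start is the lower coordinate of a gene, whichever its strand. This window was drawn around RGD1305938 and Plcxd3, which were chosen by their measured levels, over 100 CPM (counts scaled to library size) in INS-SMA and near 0 in INS-MOCK. Those values are therefore a description and carry no test. The window held 6 of the 21553 named genes, each with 1 transcript row, and 4 of the 6 passed the filter on low counts. Coordinates are those of the table; rn6 is the one rat build that the submitters' processing notes name.

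Genes that lie side by side can share regulatory DNA or be switched independently, and each gene here works in a different process. The RefSeq table lists RGD1305938 as a synonym of Rimoc1. In human cells the RIMOC1 protein binds RAB7A and the MON1-CCZ1 complex that activates it, a step of late endosome traffic and of mitophagy, the removal of damaged mitochondria. Plcxd3 encodes a protein with the catalytic X domain of phosphatidylinositol-specific phospholipase C, a family of enzymes that cleave membrane phosphoinositides. Oxct1 encodes the mitochondrial enzyme that lets cells burn ketone bodies, and Fbxo4 encodes a substrate-binding subunit of SCF ubiquitin ligases.

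In order of position, the window began with Fbxo4 (53797954 to 53811134, minus strand) and RGD1305938 (53813131 to 53827175, minus strand). These genes are separated by 1996 bases, and RGD1305938 is transcribed towards Fbxo4. Oxct1 (53859737 to 54007756, plus strand) starts on the other side of RGD1305938 after a gap of 32561 bases, so these genes are transcribed away from each other. Plcxd3 (54191538 to 54360780, plus strand) follows after 183781 bases and runs in the same direction as Oxct1. Beyond it lie RF00560 (54392808 to 54392934, plus strand), a small RNA gene known by its family code, and AABR07008370.1 (54660722 to 54686097, plus strand), which the table does not describe. No member overlaps another.

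RefSeq promoter sequences were found for 4 of the 6 members. The 250 bases before the start are shown for RGD1305938 and Plcxd3, the genes with the on and off pattern, and for Oxct1, which lies between them and was lower in INS-SMA. They come from the GRCr8 build, whose coordinates differ from those of the table, at chr2:54931431-54931680 (minus strand), chr2:55294347-55294596 (plus strand) and chr2:54963714-54963963 (plus strand) in that order. Capitals mark every match, on either strand, to 6 motifs. The TATA box was searched as TATAAA and the CCAAT box by the letters of its name. The GC box, a site of SP family factors, was searched as GGGCGG, and the E-box, a site of helix-loop-helix factors, as CACGTG. The core of the cyclic AMP response element was searched as TGACGT, and that of the interferon-stimulated response element as GAAANNGAAA.
RGD1305938: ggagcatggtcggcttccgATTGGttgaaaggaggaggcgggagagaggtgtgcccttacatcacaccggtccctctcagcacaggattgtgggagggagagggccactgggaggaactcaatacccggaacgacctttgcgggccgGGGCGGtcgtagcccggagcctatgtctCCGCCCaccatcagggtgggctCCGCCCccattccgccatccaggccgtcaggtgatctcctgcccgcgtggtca
Plcxd3: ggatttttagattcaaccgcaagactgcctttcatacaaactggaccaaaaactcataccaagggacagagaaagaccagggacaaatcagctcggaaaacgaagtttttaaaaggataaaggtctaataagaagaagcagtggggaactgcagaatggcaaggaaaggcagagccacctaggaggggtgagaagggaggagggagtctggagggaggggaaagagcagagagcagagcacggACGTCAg
Oxct1: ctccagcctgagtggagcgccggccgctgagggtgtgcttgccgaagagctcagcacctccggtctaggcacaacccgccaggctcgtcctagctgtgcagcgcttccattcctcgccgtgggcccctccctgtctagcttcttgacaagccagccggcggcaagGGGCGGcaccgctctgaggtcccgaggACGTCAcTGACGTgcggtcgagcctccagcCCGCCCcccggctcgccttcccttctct

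The promoter letters of RGD1305938 and Plcxd3 differed in composition. That of RGD1305938 was 64.8% G and C, with 1 CCAAT box match and 3 GC box matches. That of Plcxd3 was 48.8% G and C, against a median of 51.2% over 33469 rat promoters. It held 1 match to the core of the cyclic AMP response element, 7 bases before the start. The Oxct1 promoter was 68.8% G and C, with 2 GC box matches and 2 matches to the cyclic AMP response element core. The Fbxo4 promoter (41.2%) held none of the 6 motifs. Among all promoters of this length, 34.0% held the CCAAT box, 30.5% the GC box, 12.9% the TATA box and 5.59% the E-box. The core of the cyclic AMP response element was in 6.95% and that of the interferon-stimulated response element in 3.41%. The TATA box, the E-box and the interferon-stimulated response element core were found in none of the 4 windows, and no match overlapped another. RGD1305938 and Plcxd3 had no motif in common among the 6 searched. A match is a run of letters and does not show that a factor binds there.

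The libraries held 24719503 to 39608609 counts in INS-SMA and 34471794 to 37466920 in INS-MOCK. Values below are CPM on TMM-scaled library sizes, which makes libraries of different depth comparable. The overexpressed human ACTA2 sequence was at 56546, 52369 and 44302 CPM in the INS-SMA libraries, against 5.58, 4.62 and 7.14 CPM in the INS-MOCK libraries, so the libraries matched their labels. Over 7 beta cell markers the summed level was 2821 to 3526 CPM in INS-SMA and 31967 to 34668 CPM in INS-MOCK. Of these markers Iapp alone had a higher mean in INS-SMA (4.87 against 0.984 CPM). That mean came mostly from replicate 2, with Iapp at 1.68, 11.7 and 1.17 CPM in INS-SMA, and the groups overlapped. For 5 fibroblast markers the sum was 11.3 to 12.9 CPM in INS-SMA against 13.7 to 16.9 CPM in INS-MOCK, and its direction was that of Pdgfra alone (mean 8.24 against 15.3 CPM). The other 4 had higher means in INS-SMA: Col3a1 was at 2.84 against 0.070 CPM, Col1a1 at 0.735 against 0.055 CPM, and Col1a2 and Dcn at 0.071 and 0.274 CPM against 0 counts. For 3 immune and endothelial markers it was 1.63 to 2.40 CPM in INS-SMA against 0.124 to 0.896 CPM in INS-MOCK, with Ptprc and Cdh5 at 0 in INS-MOCK and Cd68 lower in INS-SMA (mean 0.315 against 0.568 CPM). The part of these marker shifts in the results below was not tested. In bulk RNA, more cells that express a gene and more RNA per cell cannot be told apart.

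RGD1305938, the RAB7A regulator gene, was detected in every INS-SMA library and in no INS-MOCK library. It had 1897, 2854 and 3286 counts in INS-SMA, which is 114.0, 131 and 128 CPM, against 0, 0 and 0 counts in INS-MOCK. In the INS-MOCK libraries 3 counts, taken as the floor, amount to 0.124 to 0.134 CPM. The mean of RGD1305938 in INS-SMA (124 ± 9.03 CPM, SD, n = 3) was 964 times the mean of that floor. The floor covers counting error only. Any reads of RGD1305938 that were counted in an assembled row without a gene name are not in its value, so 0 counts here is not proof that RGD1305938 is silent in INS-MOCK.

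Plcxd3, the phospholipase C domain gene, was high in every INS-SMA library and low but detected in every INS-MOCK library. It had 2104, 3129 and 3674 counts in INS-SMA (126, 144 and 143 CPM), against 10, 11 and 11 counts in INS-MOCK (0.413, 0.493 and 0.470 CPM). The INS-MOCK libraries together held 32 counts, with an exact 95% Poisson interval of 21.9 to 45.2 that covers counting error only. The means were 138 ± 9.71 CPM in INS-SMA and 0.459 ± 0.041 CPM in INS-MOCK (SD, n = 3 each), a ratio of 300.0 and a log2 fold change of 8.21. The groups did not overlap for either gene, which follows from the choice of both by value.

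Oxct1, the ketone body enzyme gene that lies between them, fell. Its values were 94.5, 110.3 and 109 CPM in INS-SMA, against 161, 157 and 147 CPM in INS-MOCK. Every INS-SMA library lay below every INS-MOCK library. The means were 105 ± 8.89 and 155 ± 7.14 CPM (SD, n = 3 each), which gave a log2 fold change of -0.57 with an SE of 0.07 (edgeR's quasi-likelihood test, adjusted p = 0.00144 over all 13363 tested genes). Of the tested genes, 28.0% had a lower log2 fold change.

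Fbxo4, the ubiquitin ligase subunit gene downstream of RGD1305938 on the same strand, rose. It was at 14.1, 15.3 and 15.7 CPM in INS-SMA, against 8.34, 9.37 and 8.21 CPM in INS-MOCK. The groups did not overlap. The means were 15.0 ± 0.841 and 8.64 ± 0.635 CPM (SD, n = 3 each), so Fbxo4 was 0.80 higher on the log2 scale with an SE of 0.12 (adjusted p = 0.00257 in edgeR's test), and 25.0% of tested genes had a higher log2 fold change. Oxct1 and Fbxo4 entered by position rather than by value, although the limits of the window were set with results of these data known. In this comparison 55.1% of all tested genes passed the adjusted p of 0.05, 28.1% higher and 27.0% lower in INS-SMA, and in 65.3% the groups did not overlap, so a call or a separation of groups is common among genes.

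The last members were at the limit of detection. RF00560 had 3, 2 and 0 counts in INS-SMA, against 0, 0 and 1 count in INS-MOCK. Its family code stands on many genes of the table, and reads of such copies can be hard to place. AABR07008370.1 had 2, 4 and 0 counts in INS-SMA, against 0, 0 and 0 in INS-MOCK. The groups overlapped for each of them, neither passed the filter on low counts, and no difference could be shown at this depth.

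**Figure D1:**
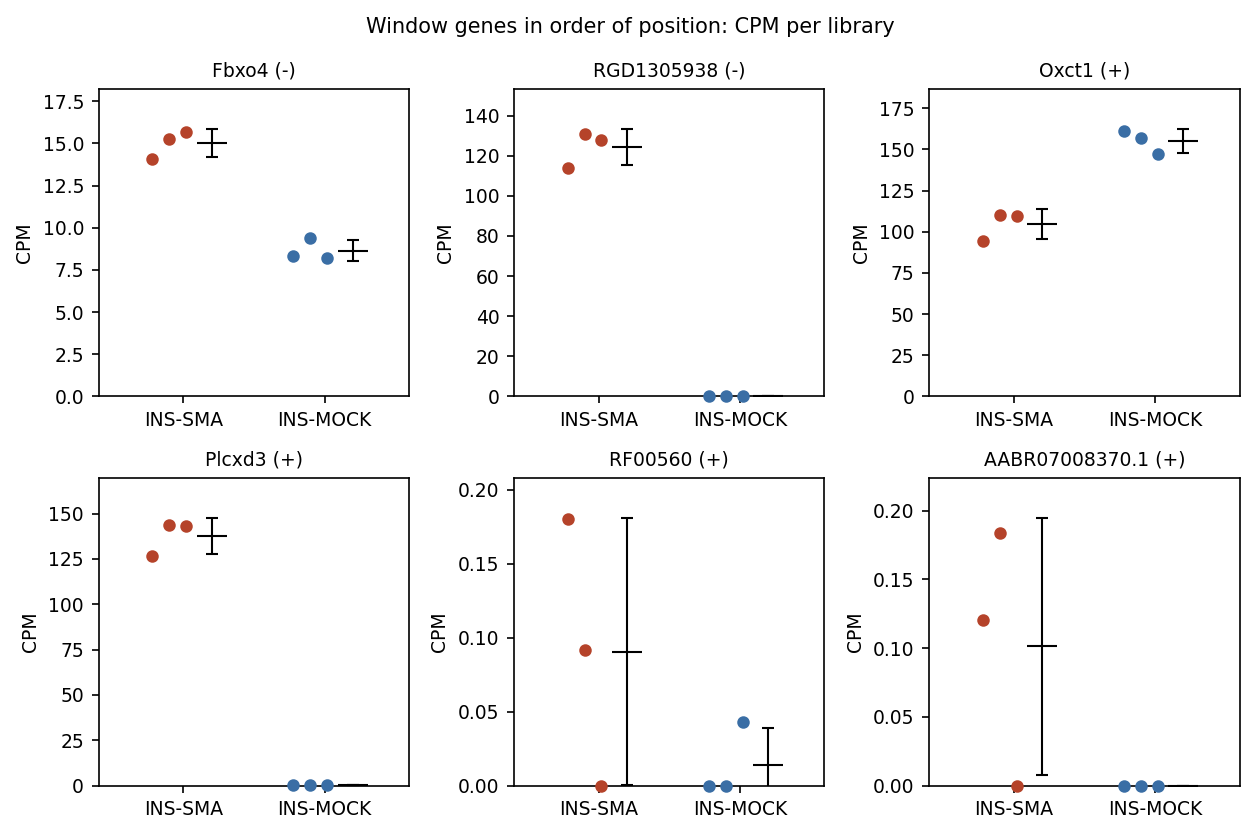
CPM per library (points) for the 6 window genes in order of position, with strand in parentheses; black bars are the mean ± SD over 3 libraries, with INS-SMA left of INS-MOCK. RGD1305938 and Plcxd3 are over 100 CPM in INS-SMA and at or near 0 in INS-MOCK, Oxct1 is lower in INS-SMA, Fbxo4 is higher, and the last 2 genes rest on 0 to 4 counts per library.

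Within INS-SMA, RGD1305938 and Plcxd3 kept nearly the same proportion. The counts of RGD1305938 were 90.2%, 91.2% and 89.4% of those of Plcxd3 in replicates 1, 2 and 3; these are counts not scaled by transcript length, so they do not compare the levels of the genes. Their coefficients of variation across INS-SMA libraries were 7.27% and 7.06%, next to 5.61% for Fbxo4, 8.49% for Oxct1 and a median of 7.04% over the 7952 tested genes at 10 CPM or more in INS-SMA. For all 4 genes the lowest INS-SMA value was in replicate 1, which also had the fewest counts of the 6 libraries and the highest CPM of human ACTA2. Fbxo4 counts were 14.9%, 13.9% and 14.3% of Oxct1 counts in INS-SMA, against 5.17%, 5.97% and 5.57% in INS-MOCK.

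An on and off pattern within the limits used here was rare in the table. Of the 13363 tested genes, 7 (0.0524%) were at a mean of at most 1 CPM in INS-MOCK and at least 100 CPM in INS-SMA, limits chosen after the values were seen. Besides RGD1305938 and Plcxd3 these were Gbp5, a guanylate-binding GTPase gene (272 against 0.028 CPM), Ptp4a2, a protein tyrosine phosphatase gene (202 against 0.872 CPM), Rtp4, a receptor transporter gene (134 against 0.579 CPM), Ifit3, an interferon-induced gene (119 against 0.030 CPM), and Apol9a, an apolipoprotein L gene (118 against 0.468 CPM). RGD1305938 was the one with 0 counts in every INS-MOCK library. The 7 genes lay on 5 chromosomes. RGD1305938 and Plcxd3, whose listed starts lie 378407 bases apart, were the only 2 of the 7 with listed starts within 1000000 bases of each other. The window was drawn around them with this known. The opposite pattern was found in 0 tested genes. The limits leave out genes just above 1 CPM in INS-MOCK, such as AABR07025140.1 (486 against 1.40 CPM) and Il23a (103 against 1.24 CPM).

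**Figure D2:**
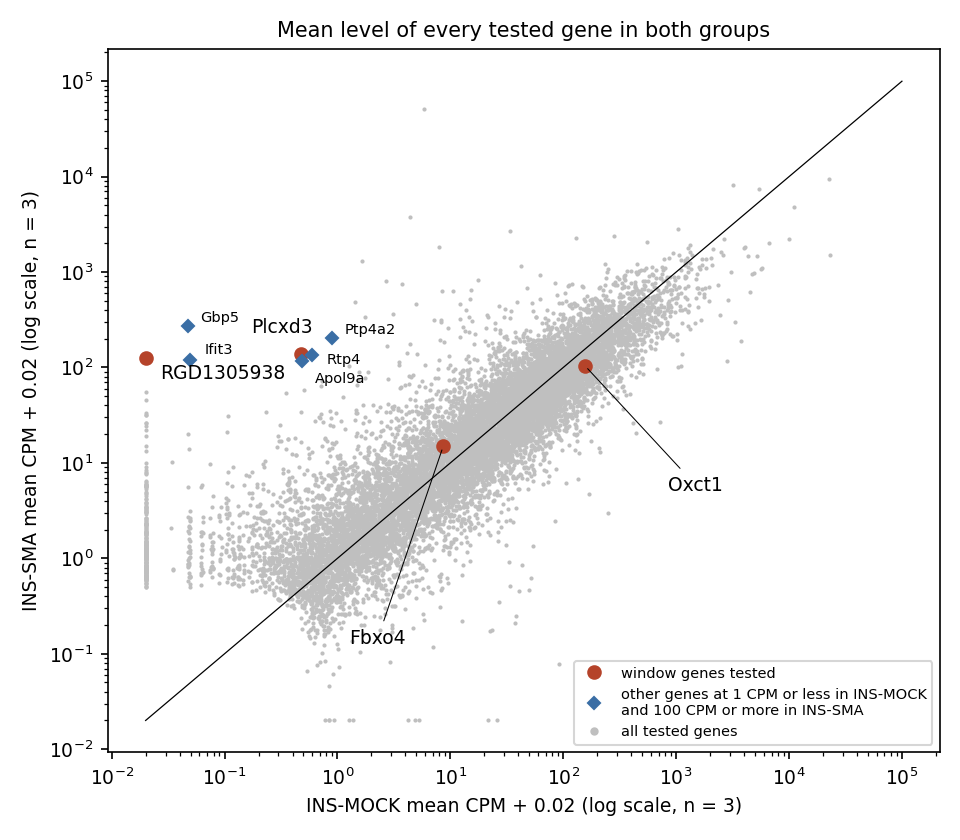
Mean CPM + 0.02 of every tested gene in INS-SMA (vertical) and INS-MOCK (horizontal), both on log scales, with the line of equal level; n = 3 per group. RGD1305938 and Plcxd3 stand at the upper left beside 5 other genes (diamonds), whereas Fbxo4 and Oxct1 lie within the main cloud close to the line.

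The genes whose values over the 6 libraries were most like those of each gene were sought outside the window only. Likeness was the Euclidean distance of log2 CPM (prior count 2), in which values of 0 depend on the prior count. For RGD1305938 the nearest tested genes outside the window were Ifit3 (distance 1.02), the interferon lambda gene Ifnl1 (2.01), Gbp5 (2.18), Ifnl3 (2.54; a close copy of Ifnl1, whose reads may not be separable) and Cd74, the invariant chain gene of MHC class II (2.94). For Plcxd3 they were Ptp4a2 (1.84), Gbp2, another guanylate-binding GTPase gene (1.99), Icam1, an adhesion molecule gene (2.22), Ubd, a ubiquitin-like modifier gene (2.26), and Il23a, a cytokine subunit gene (2.37). RGD1305938 and Plcxd3 were 4.53 apart, farther than each was from these genes.

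No flanking gene was among the 7 with the on and off pattern. Within 2000000 bases on either side the table named 33 genes, of which 18 were tested, 6 rose and 3 fell. Of all tested genes 28.1% were called higher and 27.0% lower, so such calls are common. The nearest tested gene before the window was Ghr, which encodes the growth hormone receptor and lies 384315 bases before Fbxo4. It did not pass the test, at 117, 142 and 186 CPM in INS-SMA against 163, 164 and 159 CPM in INS-MOCK (log2 fold change -0.13; 0.02 without INS-SMA replicate 1, and -0.33 with an edgeR adjusted p of 0.0400 without INS-SMA replicate 3). Zfp131, a zinc finger gene, rose by 0.82 on the log2 scale (93.8 ± 3.77 against 53.2 ± 3.35 CPM, edgeR adjusted p = 1.91e-04), and Hmgcs1, a cholesterol synthesis gene, did not pass, with a log2 fold change of -0.49 (-0.92 to -0.25 without 1 library).

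After the window, C7, a terminal complement gene, lies 23040 bases beyond the last member, with its listed start just outside the limit. It had 5, 0 and 3 counts in INS-SMA against 0 in each INS-MOCK library and was not tested. Card6, a caspase recruitment domain gene, was called lower (13.0 ± 1.72 against 17.6 ± 1.42 CPM, log2 fold change -0.43, edgeR adjusted p = 0.0475). That call was lost without any 1 of the 6 libraries (adjusted p = 0.0510 to 0.115), with DESeq2's size factors (0.0521), without normalisation factors (0.0800) and without the filter on low counts (0.0778), and the most abundant row of Card6 had a log2 fold change of 0.19. Prkaa1, a catalytic subunit gene of AMP-activated protein kinase, rose by 0.64 (194 ± 15.4 against 124 ± 6.92 CPM, adjusted p = 8.53e-04). Ttc33, a tetratricopeptide repeat gene, rose by 0.38 (31.9 ± 2.53 against 24.4 ± 0.994 CPM, adjusted p = 0.0137). Ghr, Zfp131, Hmgcs1, Card6, Prkaa1 and Ttc33 were all above 5 CPM in both groups.

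**Figure D3:**
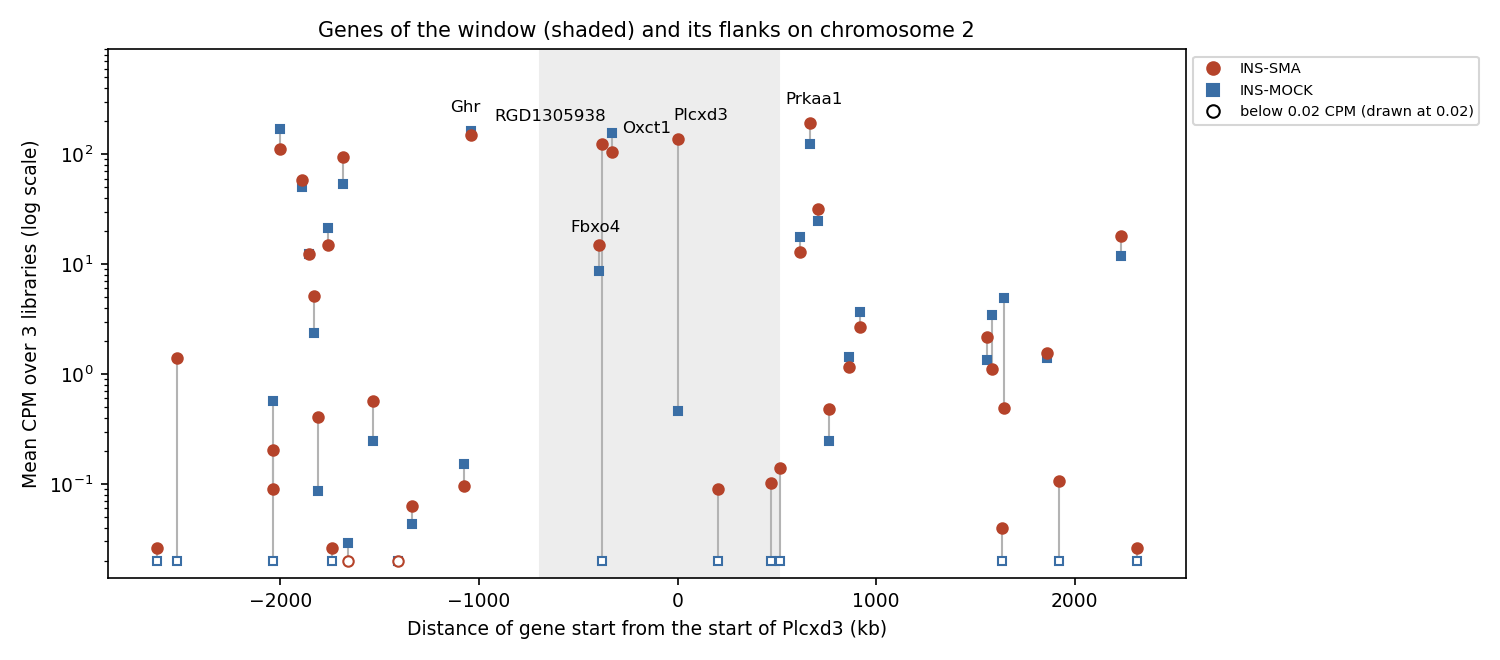
Mean CPM (log scale) of each named gene of the window (shaded) and of 2000000 bases on either side. The horizontal axis is the distance of its listed start from that of Plcxd3. Circles are INS-SMA, squares INS-MOCK, grey lines join both means of a gene, and open symbols are means below 0.02 CPM. The long lines at 100 CPM or more belong to RGD1305938 and Plcxd3, with the short lines of Oxct1 and Fbxo4 beside them.

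Plcxd3 was set beside the phospholipase C family, which cleaves or binds phosphoinositides. All 18 listed genes were in the table and 14 were tested. Of the 13 other than Plcxd3, 2 rose and 2 fell, where 28.1% of all tested genes rose and 27.0% fell. The median log2 fold change of the 13 was 0.39, against 0.03 over all tested genes. The other X-domain genes did not show the pattern of Plcxd3. Plcxd2 was at 2.28 ± 0.812 CPM in INS-SMA and 1.74 ± 0.326 CPM in INS-MOCK (edgeR adjusted p = 0.376), and Plcxd1 was below the filter. Plce1, the isoform that RAS proteins activate, rose by 1.26 (7.52 ± 0.372 against 3.13 ± 0.399 CPM, adjusted p = 0.00180), and Plcg2, an isoform of immune cell signalling, rose by 3.42 at a low level (1.13 ± 0.412 against 0.0999 ± 0.088 CPM, adjusted p = 0.0163). Plcb3, an isoform downstream of G proteins, fell by 0.94 (33.0 ± 6.74 against 63.3 ± 5.51 CPM, adjusted p = 0.00532), and Plcd4 fell by 1.17 (1.58 ± 0.592 against 3.60 ± 0.320 CPM, adjusted p = 0.0289). The call of Plcd4 was lost without INS-SMA replicate 2 or any 1 INS-MOCK library (adjusted p = 0.0586 to 0.0763), which left 1 member called lower. That of Plcg2 was lost without INS-SMA replicate 1 (0.0522) or INS-MOCK replicate 2 (0.0528), which left 1 member called higher in the second case.

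RGD1305938 was set beside genes of RAB7 activation and mitophagy. Of 17 listed genes 14 were in the table and 13 were tested. Of the 12 other than RGD1305938, 5 rose and 1 fell, where 28.1% of all tested genes rose and 27.0% fell. The median log2 fold change of the 12 was 0.39, against 0.03 over all tested genes. The genes for the proteins that bind RIMOC1 in human cells were not called higher. Rab7a, the late endosome GTPase gene, fell by 0.56 (302 ± 13.3 against 446 ± 10.2 CPM, edgeR adjusted p = 1.63e-04). Mon1a (13.0 ± 2.40 against 13.6 ± 1.26 CPM, adjusted p = 0.777) and Ccz1b (104 ± 8.68 against 113 ± 3.50 CPM, adjusted p = 0.202), both of the RAB7 activating complex, did not pass, and Mon1b was below the filter. The members that rose were Tbc1d15, a RAB7 GTPase activating protein gene (0.70, adjusted p = 7.78e-05), the mitophagy receptor genes Tax1bp1 (0.71, adjusted p = 1.22e-04) and Optn (1.85, adjusted p = 0.00252), the mitophagy kinase gene Pink1 (0.81, adjusted p = 6.04e-04) and the mitochondrial fission gene Fis1 (1.06, adjusted p = 0.0183). By the most abundant row, Tax1bp1 (adjusted p = 0.162) and Fis1 (0.0932) no longer passed, which left 3 members called higher. The call of Fis1 was also lost without INS-MOCK replicate 1 (0.0565) or replicate 2 (0.0603). Without INS-SMA replicate 2, 2 members were called lower.

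**Figure D4:**
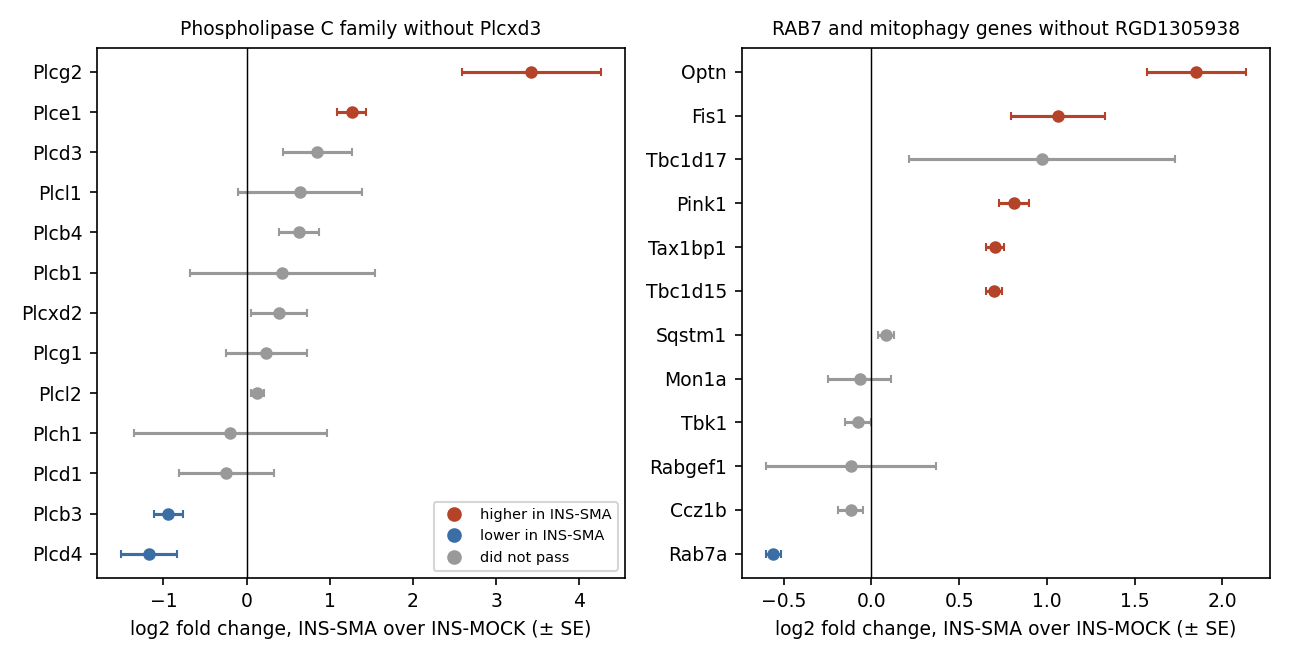
Log2 fold change of INS-SMA over INS-MOCK (± SE, n = 3 per group) for the tested members of the phospholipase C list without Plcxd3 and of the RAB7 and mitophagy list without RGD1305938. In the first list Plce1 and Plcg2 passed as higher and Plcb3 and Plcd4 as lower; in the second 5 genes passed as higher and Rab7a as lower.

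Oxct1 was set beside other genes of ketone body use. Of 11 listed genes 9 were in the table and 6 were tested. Oxct1 itself was the member that fell, where 27.0% of all tested genes were called lower. Bdh1, the mitochondrial hydroxybutyrate dehydrogenase gene, did not pass (log2 fold change -0.16, adjusted p = 0.117), nor did the monocarboxylate transporter gene Slc16a7 (-0.65, 0.0504). Without INS-MOCK replicate 3, 3 members were called lower, and 2 with a stricter filter on low counts or in the DESeq2 test. The terminal complement genes, which include C7 and C9 beyond Plcxd3 on chromosome 2, had few counts. Of 7 listed genes 5 were in the table and 3 were tested, where 28.1% of all tested genes rose and 27.0% fell. C9 fell by 1.62 (1.11 ± 0.445 against 3.44 ± 0.606 CPM, adjusted p = 0.0115), 0 rose (1 without the filter on low counts), and C5 (5.18 ± 0.638 against 5.37 ± 0.632 CPM) did not pass.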

How the data were processed

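The deposited file is a raw count table of transcripts with a column for each library and no pooling; 35604 of its 101905 rows name a gene. The submitters' processing notes list HISAT2, HISAT, DESeq2, hg19 and rn6 with no roles. Which program counted reads, and whether it used strand, is not stated in the labels. Rows with no gene name held 32.7% to 36.7% of a library's counts and entered neither library sizes nor tests.

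Counts were summed per gene, filtered with edgeR 4.0.16 filterByExpr, scaled with TMM factors and tested with the quasi-likelihood F-test in a model of group alone over the 6 libraries. Adjustment was by Benjamini and Hochberg over 13363 genes, with a threshold of 0.05. The SE of a log2 fold change is its absolute value over the root of F. Counts were simulated for these 13363 genes, with 100 genes changed by 1 log2 unit and 100 by 2, none of low mean level. The test recovered 30% and 74% of these changes and called 3 of 13163 unchanged genes. In the real comparison 55.1% of tested genes passed, so these recoveries do not give its sensitivity. No library was a duplicate: pairs of replicates gave chi-squares of 42.7 to 55.6 per degree of freedom.

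The members and the 4 gene lists were chosen with earlier results of these data known. Every window gene is named; from each list the members past the threshold are named, at most 6, with a few others chosen after their values were seen, and 1 list member is not reported here; of the flanking genes, the nearest 3 tested on each side; and for likeness the nearest 5 genes. Where a symbol had several genes, the one with the most counts was used. Promoter sequences and the name Rimoc1 come from RefSeq (GRCr8), matched by gene identifier. Alternatives were other normalisation factors, filters, DESeq2 1.42.0, the most abundant row of each gene, unnamed rows in the library sizes, a replicate block and leaving out each library.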

Additional observations from a re-analysis of the deposited data

How the results depend on the processing

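The log2 fold changes of Oxct1 (-0.61 to -0.48) and Fbxo4 (0.76 to 0.89) kept their direction and their call under all 14 alternatives (largest adjusted p 0.0136 and 0.0187). The means of RGD1305938 and Plcxd3 in INS-SMA were 149 and 165 CPM when the most abundant row stood for each gene, and 81.4 and 90.2 CPM with unnamed rows in the library sizes. Both genes have 1 row, so their counts are the same there and the shift comes from the library sizes. Without 1 library these means were 120.3 to 128 and 134 to 142 CPM, and 3458 to 3672 genes were called higher and 3239 to 3474 lower, against 3753 and 3606 with all libraries. Among flanking genes the sign turned for Card6 in its most abundant row (0.19) and for Ghr without INS-SMA replicate 1 (0.016; -0.33 to 0.016 without 1 library). Replicate numbers did not pair the libraries (correlation of deviations -0.03, -0.01 and -0.03). With a replicate block Card6, Ttc33, Plcg2, Plcd4, Fis1 and C9 lost their calls (adjusted p 0.0551 to 0.115), 3 flanking genes were called higher and 1 lower, the phospholipase C list had 1 call in each direction and the terminal complement list 0 lower. A stricter filter on low counts left 1 member of the phospholipase C list called higher. Card6 kept its call under 3 of 14 alternatives, and the changes of other calls in single genes stand in the report beside them. Without 1 library, 5 to 7 flanking genes were called higher and 2 to 4 lower. Not every small shift in the counts of called list and flanking genes is given. Levels under about 0.1 CPM rest on 3 counts or fewer and are limited by depth.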

Other observations

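Assembled rows with no gene name show both directions of the on and off pattern. Of 66301 such rows, 50 were at a mean of at least 100 CPM in INS-SMA and at most 1 CPM in INS-MOCK, and 29 were at most 1 CPM in INS-SMA and at least 100 CPM in INS-MOCK. Among the tested named genes these numbers were 7 and 0. The table lists no position for any unnamed row, and none is assigned here to the neighbourhood of Plcxd3.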
